A study of Homo sapiens with 12 samples.

Results

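The mitochondrial ribosomal protein genes were taken as every row whose symbol is MRPL or MRPS followed by a number and at most a single letter, leaving out rows whose name carries a suffix for a further copy of a gene, and 78 of the 61163 rows of the count tables met this rule. Of these, 49 carried an MRPL symbol and 29 an MRPS symbol. The libraries came from HEK293T cells, a human embryonic kidney line that carries the SV40 large T antigen, either unedited (HEK WT) or with the HNRNPUL1 gene disrupted by CRISPR-Cas9 (HEK UL1 KO), which encodes the RNA-binding protein hnRNP UL1. RNA of each line was taken from nucleoli (NO) and from the remaining cytoplasm and nucleus (CN), with 3 libraries in each of the 4 groups and 12 in all, and rRNA was not depleted. The edited line was made with guides to exons 2 and 3, and whether it descends from a single clone is not stated in the sources used here. The labels do not say whether the 3 libraries of a group came from separate cultures, so the tests measure only the spread between these libraries.

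Mitochondria keep their own ribosome, which translates the few proteins that mitochondrial DNA still encodes, all of them subunits of the respiratory chain and the ATP synthase. Its rRNAs are made in the organelle, whereas all of its proteins are encoded in the nucleus, translated in the cytosol and imported. Many of these proteins descend from bacterial ribosomal proteins, others are found only in mitochondria, and the genes are scattered over the chromosomes rather than clustered in an operon. The nucleolus, from which the NO fraction takes its name, assembles the cytosolic ribosome and not the mitochondrial one.

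Library totals ran from 37141666 to 83019079 counts in NO and from 54349399 to 104040073 in CN, of which rRNA took 55.3 to 78.7%. The 78 genes together received 10030 to 33476 counts per library, and the median gene of the family received 101 to 276.5, so counting error limited the lowest members. MRPS12 had 214 counts over all 12 libraries. HEK WT NO replicate 3 stood apart, with a scaling factor by the trimmed mean of M-values (TMM) of 1.40 against 0.690 and 0.622 in the other HEK WT NO libraries, so the counts, medians and named values of the members between the lines in NO are given with and without it. For the other tests that use this library, between the fractions and of the interaction, only counts and medians are given without it. HNRNPUL1 itself was lower in both fractions of the edited line, at 4.74 to 4.86 CPM (the count scaled to library size) in CN against 15.4 to 18 in HEK WT (log2 fold change -1.83, SE 0.08, edgeR adjusted p = 2.12e-07) and at 3.56 to 4.08 in NO against 9.28 to 21.5 (log2 fold change -2.00, SE 0.32, adjusted p = 0.00649). The 6 genes kept as marks of HEK293 cells (VIM, KRT8, KRT18, PAX2, NEFM and INA) passed the filter in every comparison, and all 6 also differed between the lines in CN, with 3 higher and 3 lower in HEK UL1 KO, and 2 of the 6 were lower in NO. Of the 6 marks of other cell types, HBB was not tested in either fraction, and ALB and COL1A2 were too low to test in CN. Of the 3 tested in CN only COL1A1 was called, higher in HEK UL1 KO (median of the 3 0.74), and none of the 5 tested in NO was called. Between the fractions PTPRC and PECAM1 were called higher in NO in HEK WT (median of 3 tested 1.94) and 4 of 5 were called higher in HEK UL1 KO (median 1.67), and the part of such RNA in the values below was not tested.

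The members differed widely in level. Per kilobase of the canonical transcript, the level in CN of HEK WT ran from 0.446 to 33.6 CPM per kilobase with a median of 2.80. The highest was MRPS6, a small-subunit protein, at 33.6 ± 3.67 (SD, n = 3), followed by MRPS28 at 23.2 ± 1.02, MRPL3 at 20.5 ± 1.51, MRPL1 at 11.2 ± 1.19 and MRPS9 at 10.3 ± 0.09. Within this order MRPL1 and MRPS9 did not differ beyond their spread. The order depends on the length used. The canonical transcript of MRPS6 has 931 bases, while all its annotated exons cover 4273. These lengths were 838 and 1817 for MRPS28 and 1708 and 2715 for MRPL3. The lowest were MRPL28 at 0.446 ± 0.02, MRPS12, the decoding-site protein of the small subunit, at 0.470 ± 0.07, MRPL54 at 0.533 ± 0.03, MRPL41 at 0.823 ± 0.48 and MRPL38 at 0.834 ± 0.19. The spread of MRPL41 covered the values of both its neighbours in this order.

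The first comparison asked whether loss of hnRNP UL1 altered these mRNAs in the CN fraction. In HEK UL1 KO 19 of the 78 were lower and 4 were higher, out of 78 tested, at an adjusted p under 0.05 in edgeR's quasi-likelihood test. Over all genes tested 22.3% were called lower and 15.6% higher, so the members' shares of 24.4% lower and 5.13% higher were close to that background for losses and below it for gains. The median log2 fold change was -0.12 over the 78 members, -0.04 over all protein-coding genes and 0.04 over all genes tested, and 65 of the members lay within 0.5 of 0 on the log2 scale. Protein-coding genes were called lower in 28.5% and higher in 16.2%. The members' median minus that of protein-coding genes was -0.09, with 46 of 78 members below the latter, and with DESeq2 it was -0.19, with 55 of 78. Each library holds RNA of a fraction pooled over many cells. Fewer cells holding an mRNA and less of it per cell therefore cannot be told apart.

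**Figure D1:**
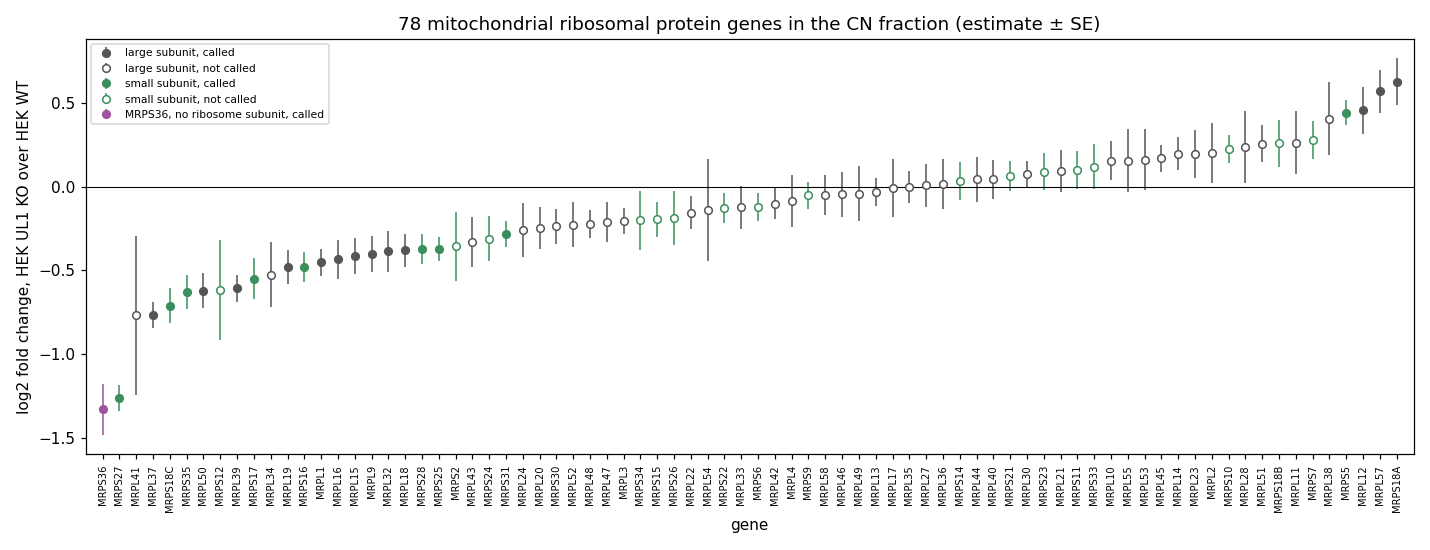
Log2 fold change (HEK UL1 KO over HEK WT) of each of the 78 genes in the CN fraction, in order of size, with its SE, for 3 libraries a group. Filled points passed an adjusted p under 0.05, colours give the subunit, and MRPS36 and MRPS27 lie apart from the rest at -1.33 and -1.26.

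MRPS27, a mitochondria-specific protein of the small subunit that belongs to the RNA-binding pentatricopeptide repeat family, had 17.2, 16.6 and 18.2 CPM in the HEK WT CN libraries and 6.71, 7.36 and 7.59 CPM in the HEK UL1 KO libraries. The groups lay far apart, with 41.7% of the HEK WT level left (log2 fold change -1.26, SE 0.08, adjusted p = 1.92e-06). MRPS36 had 2.52, 2.41 and 2.69 CPM in HEK WT and 1.2, 0.972 and 0.843 CPM in HEK UL1 KO (log2 fold change -1.33, SE 0.15, adjusted p = 8.83e-05). MRPS36 kept its ribosomal name although its product is now known as a subunit of the 2-oxoglutarate dehydrogenase complex, and it was counted with neither subunit here. A further row of MRPS36 holds 92.3% as many counts as the row used, and its pseudogene rows together hold 22.2%. Whether reads were counted in more than 1 of these rows was not tested.

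Among the other small-subunit genes, 7 were lower and 1 was higher. MRPS18C, which encodes the counterpart of bacterial S18, had 5.20, 4.69 and 4.30 CPM in HEK WT and 3.02, 2.94 and 2.7 in HEK UL1 KO (log2 fold change -0.71, SE 0.11, adjusted p = 0.000456). MRPS35 fell from 10.6, 9 and 9.68 CPM to 6.72, 6.75 and 5.46 (log2 fold change -0.63, SE 0.10, adjusted p = 0.000783). MRPS17, the counterpart of bacterial S17, fell from 2.55, 2.22 and 2.35 CPM to 1.69, 1.60 and 1.57 (log2 fold change -0.55, SE 0.12, adjusted p = 0.00516). The rule that named these 3 genes required groups that do not overlap. In CN 52.8% of all genes tested and 37 of the 78 members met that requirement. MRPS16, MRPS25, MRPS28 and MRPS31 were lower by 0.28 to 0.48 on the log2 scale. The call of MRPS31 was lost with total counts, without a filter on low counts and with at least 10 counts in every library. It was also lost with a GC-content offset and with all 12 libraries in a single fit. Leaving out HEK WT CN replicate 1 or 3, or HEK UL1 KO CN replicate 2 or 3, lost it as well. The small-subunit gene that rose was MRPS5, with 5.36, 5.22 and 5.31 CPM in HEK WT and 7.13, 7.10 and 7.32 in HEK UL1 KO (log2 fold change 0.44, SE 0.07, adjusted p = 0.00106), where the libraries of each group agreed closely.

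Of the 51 genes of the large subunit, MRPS18A and MRPS30 included because their products sit in it, 10 were lower and 3 were higher. MRPL37 had 11.9, 11 and 11.6 CPM in HEK WT and 6.56, 6.59 and 7.18 in HEK UL1 KO, with 58.9% of the level left (log2 fold change -0.76, SE 0.08, adjusted p = 3.5e-05). MRPL50 fell from 6.27, 5.32 and 5.26 CPM to 3.80, 3.81 and 3.34 (log2 fold change -0.62, SE 0.10, adjusted p = 0.000973). MRPL39, which carries a domain related to threonyl-tRNA synthetase, fell from 6.94, 7.27 and 7.15 CPM to 4.95, 4.55 and 4.52 (log2 fold change -0.61, SE 0.08, adjusted p = 0.000215). All 3 are mitochondria-specific, and in all 3 the groups did not overlap, as the naming rule required. The other 7 large-subunit genes that fell, MRPL1, MRPL9, MRPL15, MRPL16, MRPL18, MRPL19 and MRPL32, were lower by 0.38 to 0.48 on the log2 scale. The call of MRPL32 was lost with total counts, with at least 10 counts in every library and with all 12 libraries in a single fit. It was also lost when any CN library other than HEK WT replicate 3 was left out.

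The large-subunit genes that rose were MRPS18A, MRPL57 and MRPL12. MRPS18A had 1.51, 1.55 and 1.84 CPM in HEK WT and 2.23, 2.49 and 2.87 in HEK UL1 KO (log2 fold change 0.63, SE 0.14, adjusted p = 0.00576). MRPL57 had 1.89, 1.60 and 1.59 CPM against 2.57, 2.66 and 2.29 (log2 fold change 0.57, SE 0.13, adjusted p = 0.00576). MRPL12, whose product forms the stalk of the ribosome on which translation factors dock, had 1.47, 1.79 and 2.02 CPM against 2.42, 2.32 and 2.51 (log2 fold change 0.46, SE 0.14, adjusted p = 0.0262). For each of the 3 the lowest HEK UL1 KO library lay above the highest HEK WT library, as the naming rule required. The call of MRPL12 was lost with DESeq2, with no filter on low counts, with a GC-content offset, with all 12 libraries in a single fit and when any CN library other than HEK WT replicate 3 was left out. Exons of MRPS18A share 50.9% of their bases with other genes, mainly RSPH9 on the opposite strand. Those of MRPL12 share 69.5% with a transcript on the same strand. Members that fell share bases too. The share was 40.2% for MRPS18C, mainly with ABRAXAS1 on the opposite strand, 45.9% for MRPS25 and 35.8% for MRPS28. MRPL9, MRPS17 and MRPL19, which fell, and MRPS5, which rose, also shared more than 20%. Over the whole family 20 members did. The share was 1.41% for MRPS27 and 6.79% for MRPL37. Part of the reads of members with shared bases may belong to the other genes.

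Other members chosen for their roles did not pass the test. MRPS30, a large-subunit protein, had 3.17 CPM in HEK UL1 KO against 3.74 (log2 fold change -0.24, SE 0.10, adjusted p = 0.0993), and MRPL58, the peptidyl-tRNA hydrolase that rescues stalled ribosomes, had 1.98 against 2.05 (-0.05, SE 0.12, adjusted p = 0.759). MRPS34 gave a log2 fold change of -0.20 (SE 0.18) and MRPL44, a ribonuclease III relative, one of 0.04 (SE 0.14). MRPS12, with 25, 31 and 30 counts in HEK WT and 13, 19 and 15 in HEK UL1 KO, was at -0.61 (SE 0.30, adjusted p = 0.127). MRPL41, with 13, 32 and 45 counts against 11, 14 and 19, was at -0.77 (SE 0.47, adjusted p = 0.223), and its groups overlapped. By descent, 11 of 48 genes of bacterial families were lower and 3 higher, against 7 of 29 and 1 of 29 among the mitochondria-specific genes, with medians of -0.07 and -0.14.

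**Figure D2:**
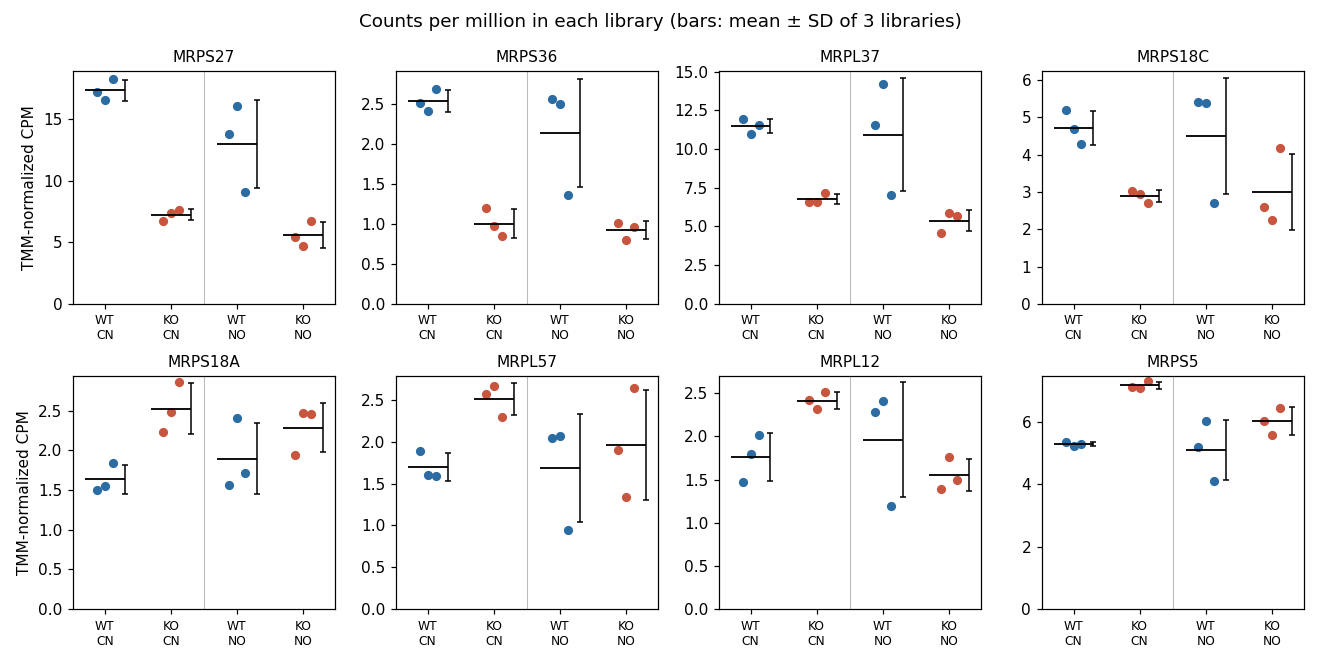
TMM-normalized CPM of 8 members in each of the 12 libraries, 3 for each line and fraction, with the mean as a line and the SD as a bar; CN and NO values were scaled separately. The 8 genes were chosen among members whose groups do not overlap in CN. In NO the HEK WT libraries spread widely and replicate 3, the rightmost point, is often the lowest.

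The CN calls depended on the scaling. With total counts in place of TMM the median of all genes moved from 0.04 to 0.24, the members' median from -0.12 to 0.08, and 3 members were lower (MRPS36, MRPS27 and MRPL37) and 5 higher (MRPS18A, MRPL57, MRPS5, MRPL12 and MRPS7), where 6.35% of all genes were called lower and 13.6% higher. With all 12 libraries in a single fit 5 members were lower, MRPS36, MRPS27, MRPL37, MRPS18C and MRPL39, where 6.41% of all genes were called lower, and none was higher.

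MRPS18A, MRPS18B and MRPS18C are paralogs of a single bacterial ancestor, and their mRNAs went different ways in CN: MRPS18A rose and MRPS18C fell as given above, while MRPS18B had 1.64, 1.85 and 2.19 CPM in HEK WT and 2.40, 2.28 and 2.09 in HEK UL1 KO, overlapping between the lines (log2 fold change 0.26, SE 0.14, adjusted p = 0.168). Exons of MRPS18A and MRPS18C overlap other genes, as given above, so part of this contrast may rest on reads of those genes. The promoters of these paralogs are printed here, with that of MRPS27 as the member whose change was best resolved. Members that changed in opposite directions can then be compared base by base. The windows are 280 bases of the RefSeq GRCh38.p14 reference, 250 before the annotated start and 30 after it: chr6:43687762-43688041 on the minus strand for MRPS18A, chr6:30617590-30617869 on the plus strand for MRPS18B, chr4:83455808-83456087 on the plus strand for MRPS18C and chr5:72320211-72320490 on the minus strand for MRPS27. Capitals mark letters of 3 motifs that activators of genes for mitochondrial proteins are known to bind, the NRF1 core GCATGCGC, the ETS core CCGGAAG and the YY1 core ATGGCGGC, searched on both strands.
MRPS18A: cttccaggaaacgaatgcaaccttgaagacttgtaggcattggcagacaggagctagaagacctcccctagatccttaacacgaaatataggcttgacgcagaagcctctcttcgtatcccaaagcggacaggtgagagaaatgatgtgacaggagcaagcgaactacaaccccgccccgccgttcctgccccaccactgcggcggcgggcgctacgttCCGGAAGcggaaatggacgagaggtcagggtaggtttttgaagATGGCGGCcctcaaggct
MRPS18B: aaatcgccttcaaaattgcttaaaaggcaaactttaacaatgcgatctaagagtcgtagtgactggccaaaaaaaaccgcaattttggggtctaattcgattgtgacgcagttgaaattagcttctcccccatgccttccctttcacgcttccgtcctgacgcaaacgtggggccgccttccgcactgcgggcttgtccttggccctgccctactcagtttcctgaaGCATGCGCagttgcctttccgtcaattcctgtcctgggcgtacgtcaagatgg
MRPS18C: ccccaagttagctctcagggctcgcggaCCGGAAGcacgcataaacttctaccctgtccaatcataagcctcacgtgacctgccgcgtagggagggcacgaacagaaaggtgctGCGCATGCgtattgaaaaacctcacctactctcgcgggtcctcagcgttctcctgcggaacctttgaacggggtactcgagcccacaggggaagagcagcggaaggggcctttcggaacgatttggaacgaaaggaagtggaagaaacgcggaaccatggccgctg
MRPS27: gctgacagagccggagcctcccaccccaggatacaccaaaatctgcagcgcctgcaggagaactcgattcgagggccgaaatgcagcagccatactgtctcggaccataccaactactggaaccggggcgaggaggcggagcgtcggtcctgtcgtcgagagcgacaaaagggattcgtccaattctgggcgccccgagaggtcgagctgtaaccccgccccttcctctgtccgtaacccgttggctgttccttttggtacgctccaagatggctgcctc

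MRPS18A held the ETS core from position 220 and the YY1 core from position 263, counted from the 5′ end of the window, MRPS18B the NRF1 core from position 228, and MRPS18C the ETS core from position 29 and the NRF1 core on the other strand from position 115. The MRPS27 window held none of these letters. RefSeq promoters of 300 bases, 250 before and 50 after the start, were at hand for 69 of the 78 members, MRPS36 not among them. The ETS core lay in 29 of the 69 (42.0%) against 10.7% of all 27305 promoters of that length and 14.4% of those of protein-coding genes, and the YY1 core in 19 (27.5%) against 3.21% and 4.57%. The NRF1 core lay in 6 (8.70%) against 3.27% and 4.26%, and 45 of the 69 held at least 1 of the 3 motifs, against 15.5% of all promoters. The ETS core was present in 4 of 16 members that fell in CN, 1 of 4 that rose and 24 of the other 49. For the YY1 core these counts were 5 of 16, 1 of 4 and 13 of 49, and for the NRF1 core 2 of 16, 0 of 4 and 4 of 49. A match describes the letters of the window and says nothing of binding in these cells.

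Several of the members that changed in CN lay among neighbours that were shifted in the same direction. For each member the 10 tested genes on either side that are not members were taken, and the median of their log2 fold changes was compared with its own. Across the 78 members Spearman's rho between the member and its neighbours was 0.47 in CN, against 0.39 over 14736 other protein-coding genes, as a description of points that share libraries and, where members are close together, neighbours. In CN the neighbours' median was below 0 for 13 of the 19 members that fell and above 0 for all 4 that rose. Over all 78 members these neighbours' medians had a median of 0.05, so a value above 0 was common.

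**Figure D3:**
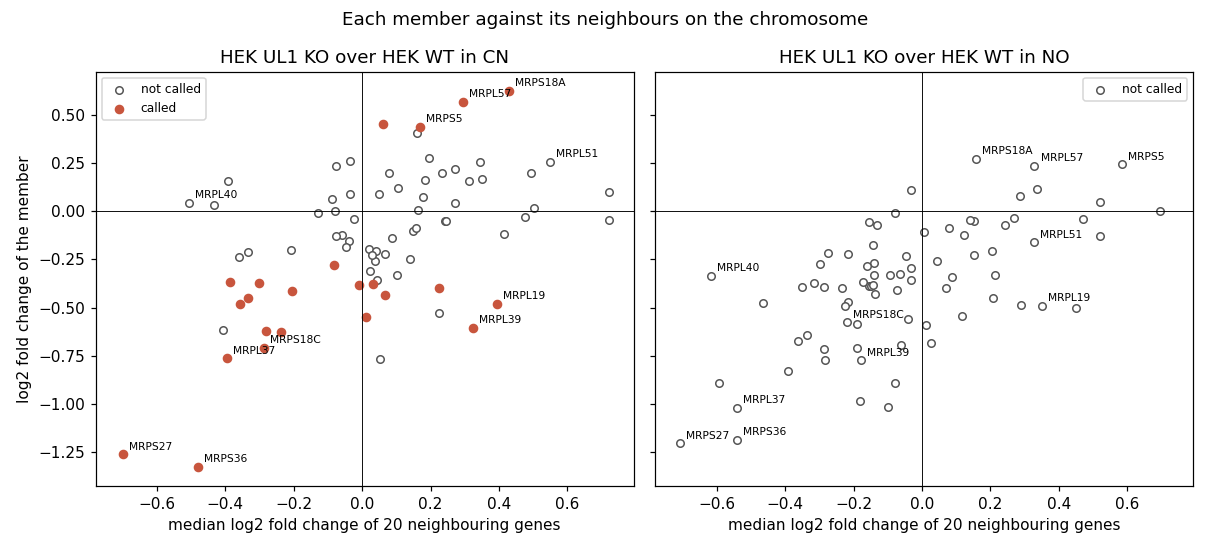
Log2 fold change (HEK UL1 KO over HEK WT) of each of the 78 members on the vertical axis against the median of its 20 neighbouring genes on the horizontal axis, in CN on the left and in NO on the right; filled points were called. MRPS27, MRPS36 and MRPL37 lie at the lower left in both panels, and MRPS18A lies at the upper right in CN with neighbours at 0.43.

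MRPS27 and MRPS36 both lie on the long arm of chromosome 5, 3.00 Mb apart, at chr5:72219403-72320240 and chr5:69217760-69230158 of GRCh38. The 20 neighbours of MRPS27 had a median log2 fold change of -0.70 in CN, the lowest of the neighbourhoods of all 78 members, with 11 called lower and 1 higher. Those of MRPS36 had a median of -0.48, and each of the 12 protein-coding genes among them was called lower, with a median of -0.88. The lowering was not limited to the nearest genes. In steps of 5 Mb along chromosome 5 the median over protein-coding genes outside the family was 0.41 from 40 to 45 Mb, then -0.80, -0.76, -0.85, -0.87 and -0.72 in the 5 steps from 50 to 75 Mb, and -0.21 from 75 to 80 Mb. Over the 92 such genes from 50 to 75 Mb, limits chosen after these values were seen, 74 were called lower and 1 higher in CN.

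In every HEK UL1 KO library of CN the median gene of this interval stood at 0.576, 0.593 and 0.543 of the HEK WT mean, while the HEK WT libraries stood at 1.01, 1.00 and 0.981. In NO the 3 HEK UL1 KO libraries stood at 0.543, 0.423 and 0.653 and the HEK WT libraries at 1.05, 1.2 and 0.738, so the lines were apart in NO as well. The median log2 fold change of the interval in NO was -0.87, with 88 of 92 genes below 0, and it was -1.07 when HEK WT NO replicate 3 was left out. MRPS30, which lies in the step from 40 to 45 Mb where the other genes were higher, did not follow them. DNA copy number was not measured in these libraries, and its part in these values was not tested.

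**Figure D4:**
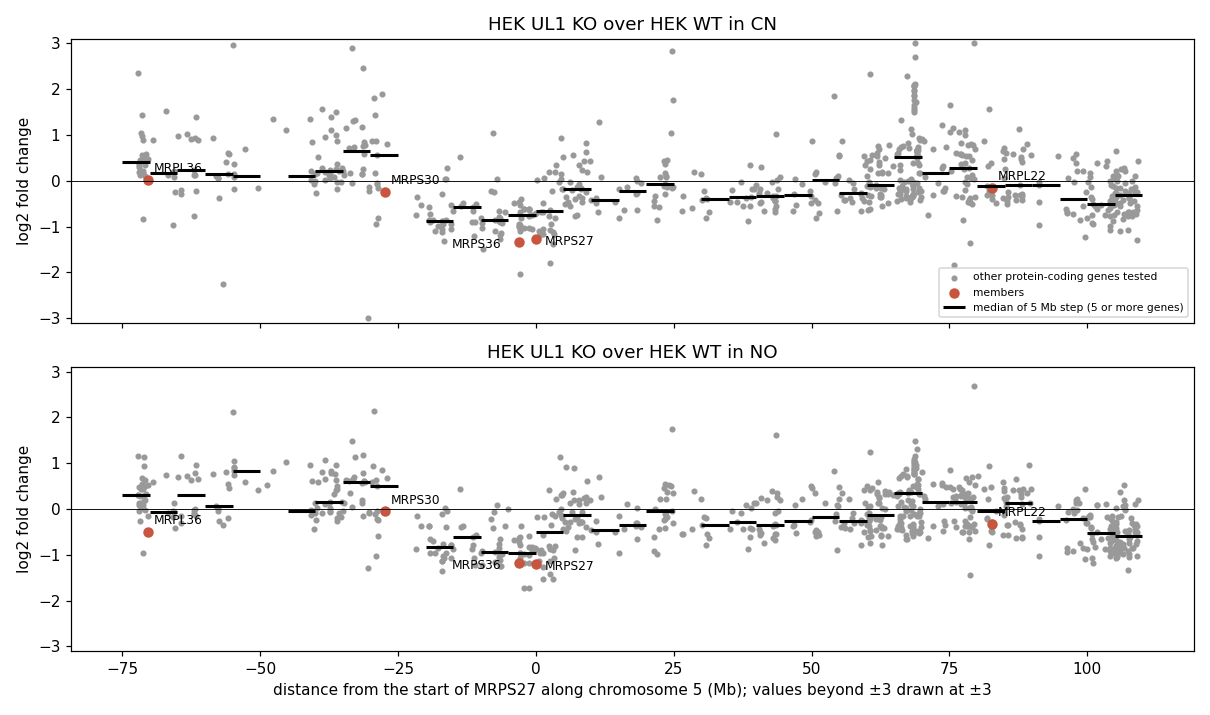
Log2 fold change (HEK UL1 KO over HEK WT) of the protein-coding genes tested on chromosome 5 against their distance from the start of MRPS27 in Mb, in CN above and in NO below; members are the large points and black lines are medians of 5 Mb steps with 5 or more genes. MRPS36 and MRPS27 lie within a run of genes below 0 in both fractions, and genes to the left of that run lie mostly above 0.

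The surroundings of the other leading members varied. The neighbours of MRPL37 at chr1:54200167-54225489 had a median of -0.40, with 8 called lower and 1 higher, and those of MRPS18A at chr6:43671202-43687791 a median of 0.43, with 7 called higher and none lower. MRPS18B, MRPS10, MRPL2 and MRPL14 lie on the same stretch of chromosome 6 as MRPS18A, where the 240 protein-coding genes from 30 to 50 Mb had a median of 0.48 with 107 called higher and 6 lower. None of those 4 members was called, and their own values ran from 0.20 to 0.26. Around MRPL51, on the short arm of chromosome 12, the neighbours' median was 0.55 with 10 called higher, while MRPL51 itself was at 0.26 (adjusted p = 0.0875). The neighbours of MRPS5 had a median of 0.17 with 9 called higher and 1 lower, those of MRPL57 one of 0.29 with 4 called higher and 4 lower, and those of MRPL12 one of 0.06 with 1 called lower and none higher.

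Not every member followed its surroundings. MRPL39 fell by 0.61 on the log2 scale among neighbours with a median of 0.32, and MRPL19 fell by 0.48 among neighbours with a median of 0.39. MRPL40 stood at 0.04 (SE 0.12) among neighbours with a median of -0.51, 11 of which were called lower. After the neighbours' median was subtracted from each member, the SD over the 78 members was 0.33 in CN, against 0.36 before. In NO it was 0.27, against 0.32 before. The remaining spread includes the error of each estimate, with a median SE of 0.12 in CN and 0.31 in NO. How much of the spread goes with position was not tested.

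In the NO fraction no member passed the test between the lines, where edgeR called 0.939% of all genes in either direction and 0.574% lower. At an unadjusted p under 0.05 there were 13 members of 78, all of them lower, against 16.0% of all genes in either direction. Of the members, 70 had log2 fold changes below 0, with a median of -0.36 against -0.12 over protein-coding genes. Without HEK WT NO replicate 3 the members' median was -0.61, against -0.19 over protein-coding genes. In that fit 76 members were below 0 and 44 had an unadjusted p under 0.05, as had 42.3% of all genes. Without HEK WT NO replicate 2 the median was -0.14 and 50 were below 0. The lowest p-values belonged to 3 genes that had also fallen in CN. MRPS27 had 13.8, 16.0 and 9.08 CPM in HEK WT and 5.46, 4.65 and 6.72 in HEK UL1 KO (log2 fold change -1.21, SE 0.30, adjusted p = 0.0625), MRPS36 had 2.56, 2.50 and 1.36 against 1.02, 0.799 and 0.960 (-1.19, SE 0.31, adjusted p = 0.0788), and MRPL37 had 11.6, 14.2 and 7.02 against 4.59, 5.90 and 5.67 (-1.02, SE 0.30, adjusted p = 0.116). In all 3 the groups did not overlap, as for 8 of the 78 members and 20.1% of all genes tested. HEK WT replicate 3 was the lowest of its group in all 3.

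DESeq2 called these 3 lower in NO, where it called 3.34% of all genes lower, and so did the fit of all 12 libraries, where 2.99% of all genes were called lower. Without HEK WT NO replicate 3 edgeR called 31 members lower and none higher, while 15.3% of all genes and 19.9% of protein-coding genes were called lower. The values then became -1.42 for MRPS27 (adjusted p = 0.00184), -1.45 for MRPS36 (adjusted p = 0.00143) and -1.28 for MRPL37 (adjusted p = 0.00287). The members that rose in CN were at 0.27 (MRPS18A, SE 0.28), 0.23 (MRPL57, SE 0.34), 0.24 (MRPS5, SE 0.26) and -0.33 (MRPL12, SE 0.31) in NO, none past the test, and without that library at 0.18, -0.09, 0.09 and -0.62, again none past it. Of the remaining members picked for their roles, MRPS34 was lowest, at 1.51, 1.85 and 0.691 CPM in HEK WT and 0.577, 0.775 and 0.632 in HEK UL1 KO (log2 fold change -1.02, SE 0.37, adjusted p = 0.187), with the groups overlapping through replicate 3. Without that replicate MRPS34 was at -1.38 (adjusted p = 0.00366). Total counts turned the members' median in NO to 0.18, while that of all genes moved from 0.00 to 0.40.

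The second comparison asked where these mRNAs lay between the fractions. In HEK WT 31 of the 78 were lower in NO than in CN and none was higher, 39.7% of the members against 20.9% of all genes called lower and 31.9% called higher, and against 30.2% of protein-coding genes called lower. The members' median log2 ratio of NO to CN was -0.51 and that of protein-coding genes -0.22. MRPL42 had 28.7, 26.6 and 26.2 CPM in CN and 13, 15.3 and 8.76 in NO (log2 fold change -1.14, SE 0.21, adjusted p = 0.00415), and MRPL19 had 12.5, 10.6 and 13.3 against 6.02, 6.38 and 4.48 (-1.11, SE 0.18, adjusted p = 0.00395). In both genes every NO library lay below every CN library, as the naming rule required. The groups did not overlap for 65.6% of all genes tested in this comparison. MRPS16, MRPS27, MRPS28, MRPL14, MRPL3 and MRPL30 followed at -0.94 to -0.81.

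In HEK UL1 KO 75 members were lower in NO and none was higher, 96.2% against 35.6% of all genes called lower and 40.7% called higher, and against 49.6% of protein-coding genes called lower. The median was -0.86, and -0.45 over protein-coding genes. MRPL42 led again, with 35.3, 37.9 and 28.9 CPM in CN and 12, 9.46 and 17.3 in NO (log2 fold change -1.40, SE 0.22, adjusted p = 0.000247). MRPS16, the counterpart of bacterial S16, had 5.43, 5.84 and 6.09 CPM against 2.20, 2.20 and 2.20 (-1.39, SE 0.14, adjusted p = 2.85e-05), and MRPS14 followed at -1.35 (SE 0.16). MRPS34, MRPS26, MRPL12, MRPL19 and MRPL35 had log2 ratios between -1.29 and -1.13. MRPL41, MRPL32 and MRPL23 were the members that did not pass, at -0.64 (SE 0.36), -0.12 (SE 0.16) and 0.14 (SE 0.19). MRPL23 was also the highest member in HEK WT, at 1.80, 2.02 and 1.87 CPM in NO and 1.40, 1.27 and 1.28 in CN (0.52, SE 0.20, adjusted p = 0.054), although a further row of MRPL23 in the tables holds 64.3% as many counts.

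**Figure D5:**
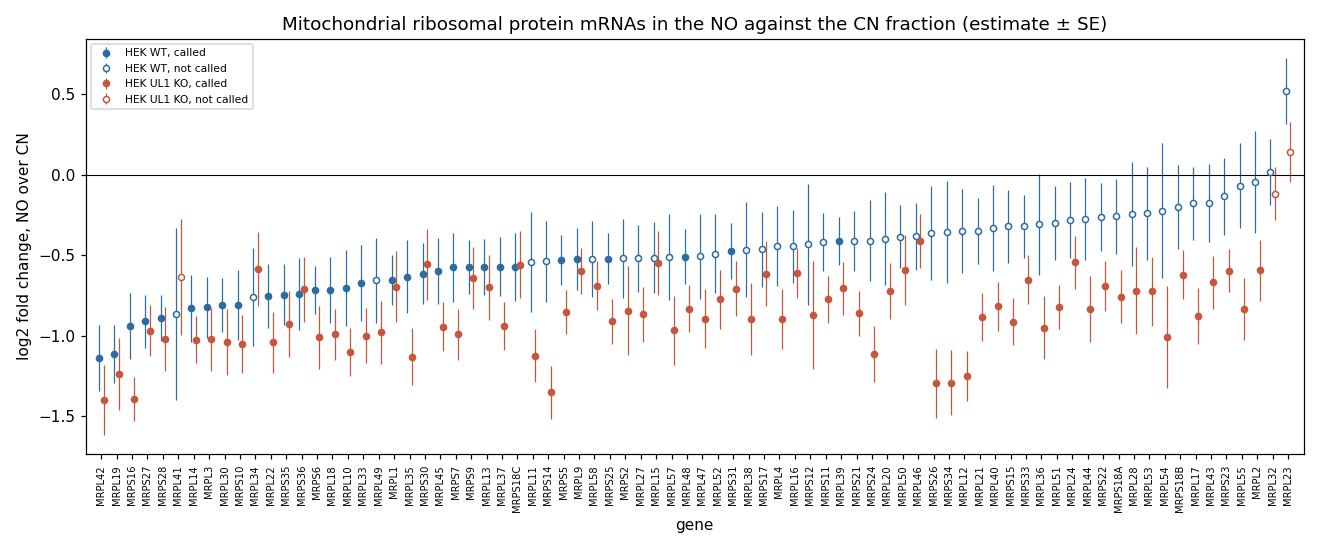
Log2 fold change of NO over CN for each of the 78 members, with its SE, in HEK WT and in HEK UL1 KO (3 libraries a fraction in each line); filled points were called. Nearly all points lie below 0 in both lines, and MRPL23, at the right end, is above 0 in both.

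These fraction ratios are relative to the RNA each fraction holds. With total counts in place of TMM the median of all genes moved from 0.02 to 0.37 in HEK WT and from 0.03 to 0.79 in HEK UL1 KO, and the calls fell to 2 lower in HEK WT, MRPL42 and MRPL19, where 2.13% of all genes were called lower, and to 4 lower and 2 higher in HEK UL1 KO, where 2.43% were called lower and 53.5% higher. In HEK WT the count of 31 also became 50 without NO replicate 2, 15 without CN replicate 1 and 16 without CN replicate 3, with 26.4%, 14.5% and 14.2% of all genes called lower. Without NO replicate 3, 31 members were lower and 1 was higher, with a median of -0.36. The shares and median of all genes in that fit are not given here. These values therefore cannot be read as particular to the members. Over the members the ratio in HEK WT had a Spearman's rho of 0.40 with GC content and -0.33 with transcript length (n = 78), against 0.32 and -0.12 over protein-coding genes.

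The count of 75 in HEK UL1 KO against 31 in HEK WT does not show that the lines differ in this respect. The test of the difference, the interaction of line and fraction over all 12 libraries, called no member, and 0.114% of all genes in either direction. No member had an unadjusted p under 0.05 in edgeR's test, and DESeq2 called none. The interaction estimates lowest on the log2 scale were those of MRPS34 at -0.65 (SE 0.41) and MRPS26 at -0.64 (SE 0.39), and the family's median was -0.06. Without HEK WT NO replicate 3 the test called no member, 10 had an unadjusted p under 0.05, and the median was -0.26. The share of all genes under that threshold in this fit is not given here, so the 10 cannot be read as particular to the members.

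Genes that work with the mitochondrial ribosome were read from lists beside the members, in CN between the lines, where the shares of all genes called were the 22.3% lower and 15.6% higher given above. Of 29 assembly factors 6 were lower and 3 higher, with a median of -0.22; among them NGRN rose by 0.75 and GTPBP6, a recycling GTPase, fell by 0.77 on the log2 scale. Of 17 translation factors 5 were lower and 1 higher, with a median of -0.09. GFM2, which splits spent mitochondrial ribosomes, fell by 1.07 and GFM1, the elongation factor G of mitochondria, fell by 0.96; GFM2 starts 2.50 Mb from MRPS27, inside the interval of chromosome 5 described above. Of the 19 mitochondrial aminoacyl-tRNA synthetases 8 were lower and 2 higher, VARS2 (log2 fold change 1.09, SE 0.20, adjusted p = 0.00194) and AARS2 (0.47, SE 0.12, adjusted p = 0.0112) being those that rose. Both lie on the stretch of chromosome 6 described above, VARS2 at chr6:30914238-30926459 and AARS2 at chr6:44298731-44313347. Of the 5 subunits outside the MRPL and MRPS naming, AURKAIP1 rose (0.80, SE 0.21, adjusted p = 0.0113) and none fell.

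Of 9 genes for transcription and upkeep of mitochondrial DNA 3 were lower and none higher. TFB2M, the factor with which the mitochondrial RNA polymerase opens its promoters, had 0.923 CPM in HEK UL1 KO against 2.92 in HEK WT in CN (log2 fold change -1.66, SE 0.13, adjusted p = 7.12e-06) and 0.873 against 2.42 in NO (-1.45, SE 0.32, adjusted p = 0.038), the latter being the lone call in NO among the listed genes that work with the mitochondrial ribosome, its rRNAs or mitochondrial DNA. TFB2M lies at chr1:246540561-246566261. In the step from 245 to 250 Mb of chromosome 1, 12 of 21 protein-coding genes were called lower in CN and 0 higher. The median log2 fold change of that step was -0.80 in CN and -0.93 in NO. Among 9 activators of genes for mitochondrial proteins PPARGC1A rose by 1.36 on the log2 scale, and PPARGC1B (-0.86), GABPA (-0.48), NRF1 (-0.36) and YY1 (-0.30) fell. The 2 mitochondrial rRNAs passed no test between the lines, with medians of 0.15 in CN and -0.83 in NO, and both were higher in NO than in CN in HEK WT (median log2 ratio 1.86).

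Cytosolic ribosomal protein genes had a lower median than the mitochondrial family in CN, at -0.31 with 44 of 78 tested lower and 4 higher, and respiratory chain subunits encoded in the nucleus had one of -0.18 with 25 of 76 lower and 9 higher. In NO the medians were -0.65 for the cytosolic ribosomal protein genes, with 3 of 79 called lower and none higher, and -0.41 for the respiratory chain subunits, with 0 of 76 called, beside -0.36 for the mitochondrial family. Between the fractions the 3 groups were close, with medians in HEK WT of -0.40 for the cytosolic ribosomal protein genes, -0.41 for the respiratory chain subunits and -0.51 for the mitochondrial ribosomal protein genes, and in HEK UL1 KO of -0.81, -0.82 and -0.86.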

How the data were processed

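The deposited files are 2 tables of raw counts per gene, 1 for each fraction, which the authors made from single-read total RNA libraries trimmed with Cutadapt 3.7, aligned to GRCh38 with STAR 2.7.8 and counted with featureCounts. A read could align to up to 20 places. The annotation release, the strand setting and the treatment of reads with several alignments are not given in the sources used here. A further 10 rows of 5 members held 64.3 to 104% as many counts as the row used, and 5 members had pseudogene rows above 20% of their own counts. The members with such pseudogene rows were MRPL45 (87.3%), MRPS31 (54.0%), MRPL36 (33.6%), MRPS36 (22.2%) and MRPS33 (21.5%). MRPS36 and MRPS31 are among the members called between the lines in CN.

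From the counts, edgeR 4.0.16 (R 4.3.3) was run with its filter on low counts (minimum count 10), TMM scaling and the quasi-likelihood test, with Benjamini-Hochberg adjustment over all genes tested and calls at an adjusted p under 0.05. Each comparison used its own 6 libraries and the interaction all 12, and CPM were scaled within each comparison, so that levels of 1 gene differ between comparisons. DESeq2 1.42.0 and other scalings, filters and left-out libraries were alternatives. The edgeR and DESeq2 fits were tested on simulated counts drawn from the CN libraries. Genes were placed with RefSeq on GRCh38.p14, and exons, transcript lengths and GC content were taken from GENCODE 44 on GRCh38. The lists were written by hand, apart from the cytosolic ribosomal protein genes and respiratory chain subunits, taken by symbol.

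Named are HNRNPUL1, the 8 largest rises and 8 largest falls among members called with groups that do not overlap in each comparison, the 5 highest and 5 lowest levels per length, members chosen for their role, and listed genes of the largest change. MRPL51, MRPL40, MRPL23 and MRPL32, the positions of GFM2, VARS2, AARS2 and TFB2M, and the limits of the chromosome intervals, were chosen after their values were seen. The members and the lists were chosen with earlier results of these data known.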

Additional observations from a re-analysis of the deposited data

How the results depend on the processing

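Each member named in a comparison for the size of its change kept its direction there under every alternative tried. Members called in a comparison but not named in it were not checked in this way. Over all named members and alternatives 30 values lost their call and 13 gained one. The 23 members called between the lines in CN became 8 with total counts and 5 with all 12 libraries in a single fit, and ranged from 18 to 28 when each library was left out. The count of 0 in NO became 3 with DESeq2, 2 without a filter on low counts, 3 with all 12 libraries, 1 with a GC-content offset, which was added after the data were seen, and 13 at an unadjusted p, and ranged from 0 to 31 when each library was left out, the 31 without HEK WT replicate 3. The 31 of NO against CN in HEK WT became 2 with total counts, 47 without a filter, 16 with at least 10 counts in every library and 59 with all 12 libraries, with a range of 15 to 50 over left-out libraries. The 75 in HEK UL1 KO became 6 with total counts and 38 with at least 10 counts in every library, and ranged from 61 to 76. Fewer members passed the stricter filter (75 or 76). Otherwise the cause was not tested. For the settings whose share of all genes called is not given above, a changed count cannot be read as particular to the members.

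Blocking on the replicate number gave call counts of 23 in CN, 0 in NO, 14 between the fractions in HEK WT and 71 in HEK UL1 KO. The deviations of libraries with the same number were negatively correlated in every pair, from -0.48 to -0.04. The labels do not say whether the same number marks the same culture. These correlations cannot decide it, since each deviation was taken from a mean of only 3 libraries.

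Small values of members named for their roles turned sign. In CN MRPL58 became 0.16 with total counts and 0.0274 with the stricter filter (-0.11 to 0.0387 over left-out libraries), MRPS34 became 0.0187 with total counts, and MRPL44 became -0.0201 with DESeq2 and -0.0404 with all 12 libraries (-0.0571 to 0.12). In NO total counts gave 0.22 for MRPL12, 0.50 for MRPS18B, 0.47 for MRPS30, 0.44 for MRPL58, 0.18 for MRPL44 and 0.11 for MRPL41. The stricter filter gave 0.0931 for MRPS18B, 0.0701 for MRPS30 and 0.0333 for MRPL58, all 12 libraries gave 0.0291 for MRPS18B and 0.0296 for MRPS30, and the replicate block gave 0.0112 for MRPS18B. Over left-out libraries MRPS18B ranged from -0.33 to 0.31, MRPS30 from -0.34 to 0.22 and MRPL58 from -0.36 to 0.21.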
